A study of Mus musculus with 2 samples.

Results

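The genes described are 9 genes of retinoic acid (RA) synthesis, degradation and response: *Cyp26b1*, *Aldh1a1*, *Aldh1a2*, *Aldh1a3*, *Rarb*, *Crabp1*, *Crabp2*, *Dhrs3* and *Stra6*. They were chosen by name and found in the somatic cell count table by matching the symbol to its Ensembl identifier, which gave 9 of the 42422 genes in the table. All 9 passed the filter on low counts and were among the 15125 genes tested. The study asked how FGF and MEK1/2 signalling act in the developing foetal testis. Mouse gonads with their mesonephros were collected at E12.5 from a cross of ASMU Swiss with the Oct4(Pou5fl)-eGFP line on a 129svJT2 background, labelled wild type, in which eGFP marks the germ cells. XX and XY gonads were taken before culture (0 h) or after 24 h or 72 h of culture with DMSO, the solvent. XY gonads were also cultured for 24 h or 72 h with 500 nM PD0325901 (MEKi), an inhibitor of the kinases MEK1 and MEK2, or 500 nM BGJ398 (FGFRi), an inhibitor of FGF receptors. No XX gonads with an inhibitor were analysed here. The mesonephros was removed, gonads of several embryos were pooled, and GFP-negative somatic cells were sorted, so that every library holds all somatic cell types of the gonad together. Each of the 10 groups has 4 libraries. One set of libraries held the uncultured samples, the 24 h DMSO samples of XX and XY and 24 h MEKi; the other held 24 h FGFRi and everything from 72 h.

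RA is made from retinol (vitamin A) in steps. STRA6 is a membrane receptor that takes retinol into cells, retinol is oxidised to retinal, and DHRS3 reduces retinal back to retinol. The retinal dehydrogenases ALDH1A1, ALDH1A2 and ALDH1A3 oxidise retinal to RA, and CYP26 enzymes, among them CYP26B1, break RA down. CRABP1 and CRABP2 bind RA in the cytoplasm, and RARB is an RA receptor whose own gene is a classical target of RA. In the foetal mouse gonad, CYP26B1 of XY somatic cells is known for keeping RA from germ cells, while in XX gonads RA signalling has long been linked to *Stra8* and the start of meiosis.

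In GRCm39 with the GENCODE annotation, *Stra6* (ENSMUSG00000032327.14) lay at chr9:57970967-58063543 on the forward strand, and *Dhrs3* (ENSMUSG00000066026.14) at chr4:144619245-144654779 on the forward strand. The dehydrogenase genes were *Aldh1a1* (ENSMUSG00000053279.8) at chr19:20469539-20622825 on the forward strand, *Aldh1a2* (ENSMUSG00000013584.5) at chr9:71122630-71203527 on the forward strand, and *Aldh1a3* (ENSMUSG00000015134.15) at chr7:66040638-66077850 on the reverse strand. *Cyp26b1* (ENSMUSG00000063415.12) lay at chr6:84548396-84570890 on the reverse strand. The genes of the binding proteins were *Crabp1* (ENSMUSG00000032291.8) at chr9:54671171-54680403 on the forward strand and *Crabp2* (ENSMUSG00000004885.5) at chr3:87855973-87860683 on the forward strand. *Rarb* (ENSMUSG00000017491.9) lay at chr14:5650540-6041094 on the forward strand. Exons of *Rarb* and of *Top2b*, on the other strand, share 2612 bases, and *Rarb* counts rest on the strand used in counting. Shorter exon overlaps with genes on the other strand were 646 bases for *Aldh1a1*, 390 for *Aldh1a2*, 227 for *Rarb* with *Gm48162*, 81 for *Crabp2* and 16 for *Stra6*.

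The *Rarb* promoter is known for an RA response element near its start, so that stretch is shown, with the same stretch of *Cyp26b1*, the gene of the 9 with the largest differences between the sexes, for comparison. The windows are RefSeq promoters of GRCm38.p6, from 250 bases before to 50 bases after each start. *Rarb* lies on the reverse strand in GRCm38.p6 and on the forward strand in GRCm39, at different coordinates. They were searched on both strands for the nuclear receptor half-site AGGTCA, its variants AGTTCA or else GGGTCA, or lastly GGTTCA, and for 2 half-sites in the same direction with 1, 2 or 5 bases between them. Of the 9 genes, 7 had an entry, with 13 windows, and *Aldh1a3* and *Crabp2* had none. The 100 bases before each start follow, 5′ to 3′ on the strand of the gene, with half-sites in capitals.
Rarb promoter, chr14:16575477-16575576, reverse strand: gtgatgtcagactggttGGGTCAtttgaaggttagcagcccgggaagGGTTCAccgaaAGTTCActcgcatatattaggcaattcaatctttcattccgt
Cyp26b1 promoter, chr6:84593811-84593910, reverse strand: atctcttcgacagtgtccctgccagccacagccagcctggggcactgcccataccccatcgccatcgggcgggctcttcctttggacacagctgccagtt
A repeat with a spacing of 5, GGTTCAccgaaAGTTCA, lay from 53 to 37 bases before the *Rarb* start (chr14:16575513-16575529). *Rarb* was the 1 gene of the 7 with a repeat in its windows. Of all 32851 promoter windows, 32 (0.0974%) held a repeat with spacing 5, 193 (0.588%) held a repeat with any of the 3 spacings, and 14358 (43.7%) held at least 1 half-site. A match describes letters and is not evidence of binding, and a window without a match says nothing of elements elsewhere.

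Transcripts were counted from their 3′ end with molecular tags, and levels are given as CPM, counts brought to a common library size by TMM scaling. Total counts per library were between 1380707 and 4836550. The low genes *Rarb* and *Crabp1* were measured with 0 to 28 and 0 to 57 counts per library. A difference was called where the false discovery rate (FDR) over all 15125 genes was below 0.05 in edgeR's quasi-likelihood test and the fold change was at least 1.5. The labels as somatic cells were checked by marker genes. The 9 germ cell markers summed to 16.7 to 542 CPM. They were highest in the 24 h MEKi group (289 to 542 CPM) and stood at 134 to 214 CPM in the 24 h XY DMSO group. *Foxl2*, a granulosa lineage gene, was at 48.3 to 274 CPM in XX and 0.569 to 32.4 CPM in XY libraries, and the Sertoli gene *Sox9* at 55 to 156 and 187 to 692 CPM. Each library correlated with the mean of the other 3 in its group at r = 0.968 to 0.986 across genes. Such a correlation mostly reflects the level of each gene, so it cannot show smaller deviations of a library. Of all genes, 273 were called with FGFRi at 72 h, and 367, 306, 90 and 167 without FGFRi library M2, M4, M5 or M6. With MEKi at 24 h 495 were called, and 393, 373, 581 and 359 without MEKi library M1, M2, M4 or M6. Nothing shows whether the pools of a group came from separate litters or days, so the tests measure the spread between these pools.

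**Figure D1:**
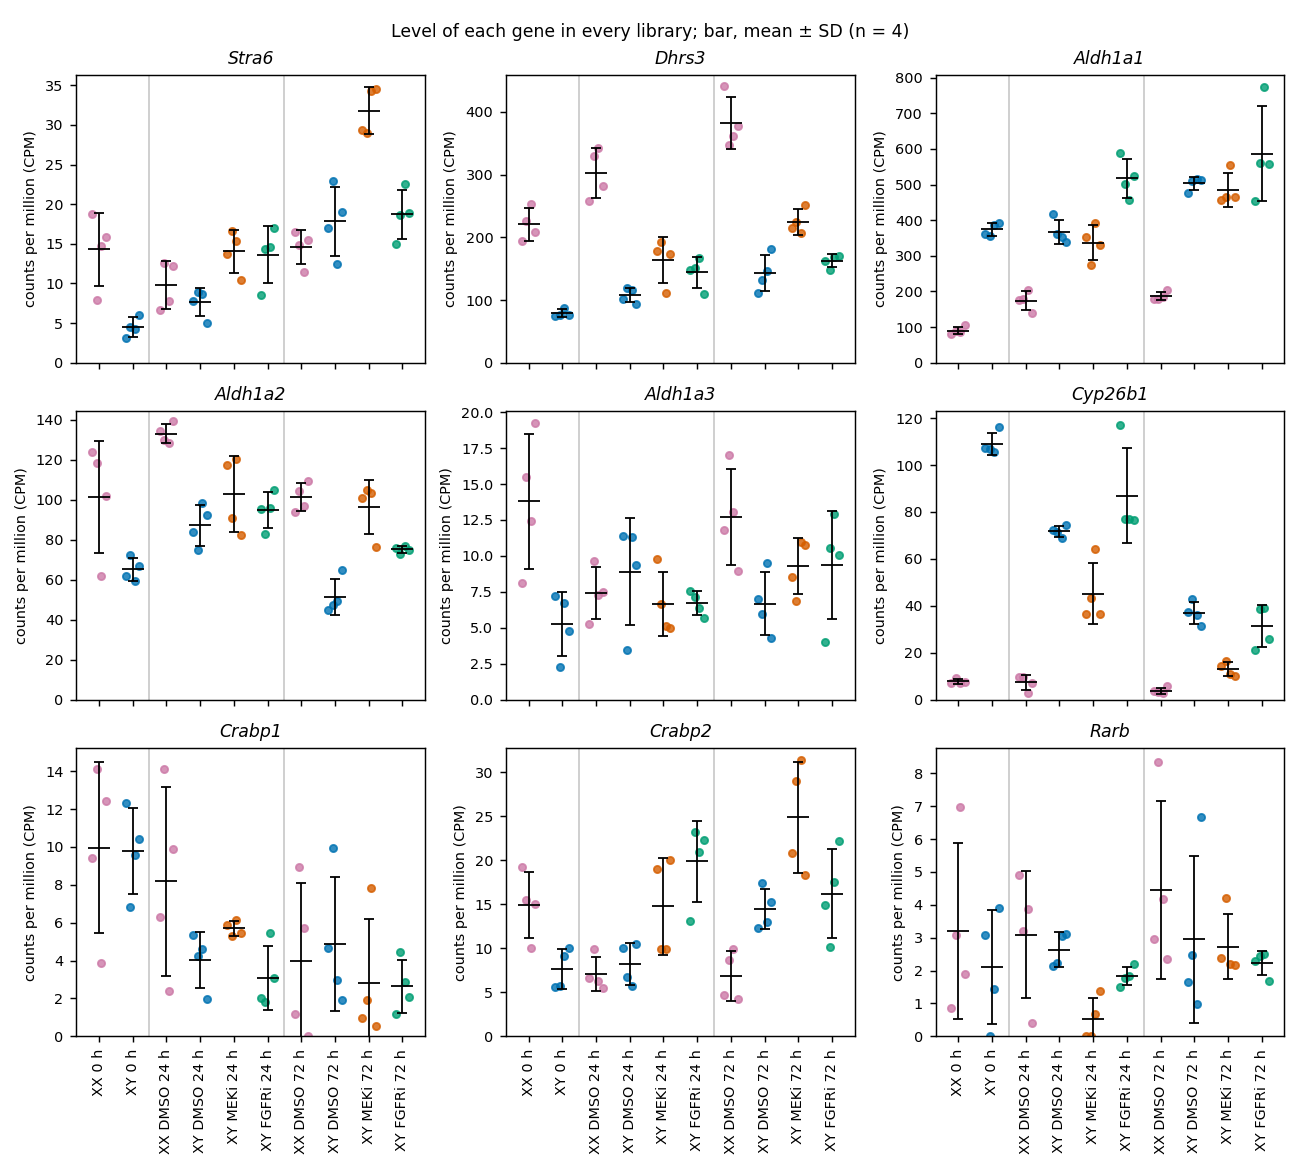
Level of each of the 9 genes in every library, in CPM on a linear axis from 0, for the 10 groups. Points are libraries (pink XX, blue XY without inhibitor, orange MEKi, green FGFRi) and black bars the mean ± SD of 4, drawn down to 0 at most. Cyp26b1 was between 105.7 and 116 CPM in XY and between 6.97 and 9.28 CPM in XX libraries before culture, while Dhrs3 was higher in XX than in XY at every time.

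XX and XY somatic cells differed at all 3 times in *Cyp26b1* and *Aldh1a1*, higher in XY, and in *Dhrs3* and *Aldh1a2*, higher in XX. Before culture 7 of the 9 genes were called, 5 higher in XX and 2 higher in XY, where 17.3% of all genes tested were called. After 24 h in DMSO 4 of 9 were called, 2 in each direction, against 19.6% of all genes, and after 72 h 6 of 9, 3 in each direction, against 20.3%. The median log2 fold change of XX minus XY over the 9 genes was 0.66, 0.23 and −0.15 at 0, 24 and 72 h, and over all genes it was −0.01 each time. With voom and treat, which tests against 1.5-fold, 3 of the 9 were called at 0 h, against 936 of all 15125 genes. In whole somatic fractions, fewer cells of a type and less RNA per cell cannot be told apart. Sertoli markers were called lower in XX in 10, 9 and 10 of 12 at 0, 24 and 72 h, and higher in 1 at 24 h. Pre-granulosa markers were higher in 8, 8 and 7 of 9, and interstitial progenitor markers lower in 6, 8 and 7 of 10. Foetal Leydig markers were lower in 5, 5 and 4 of 7, and higher in 1 at 72 h. At 72 h the Leydig markers summed to 489 to 603 CPM in XX and 422.5 to 650 CPM in XY cells. Markers of coelomic or surface epithelium (epithelial markers) were called higher in XX in 5 of 9 each time and lower in 0, 1 and 1, and mesonephros or duct markers were higher in 3 of the 4 tested each time. Endothelial markers were lower in 5 and 8 of 10 at 0 and 24 h, and erythroid markers in 2, 7 and 3 of 8. Macrophage markers were lower in 1 of 8 at 24 h and in 1 at 72 h. Germ cell markers were lower in 4 of 9 at 0 h, higher in 2 at 24 h, and lower in 3 and higher in 1 at 72 h. The part of these cell types in the values was not tested.

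*Cyp26b1* was high in XY and low in XX cells at every time. Before culture the XY libraries had 107, 107, 106 and 116 CPM and the XX libraries 7.26, 9.28, 6.97 and 7.54 CPM. The XX level was 13.8-fold lower (log2 fold change −3.79, SE 0.22, FDR 2.59e-20), and the groups did not overlap. After 24 h in DMSO the XY libraries had 72.4, 71.3, 69 and 74.3 CPM and the XX libraries 9.81, 9.65, 2.9 and 7.12 CPM, 9.16-fold lower (log2 fold change −3.20, SE 0.21, FDR 1.74e-18). The 4 XY libraries lay close together, and XX library F6 was the lowest, on 6 counts. After 72 h the values were 37.3, 42.8, 35.9 and 31.4 CPM in XY and 3.54, 3.28, 2.61 and 5.64 CPM in XX cells, 9.71-fold lower in XX (log2 fold change −3.28, SE 0.27, FDR 1.06e-14). Both sexes had their lowest values at 72 h, which belongs to the other library set.

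*Dhrs3*, whose product turns retinal back into retinol, ran the other way. Its XX libraries had 194, 226, 253 and 209 CPM before culture and its XY libraries 73.9, 75.7, 88 and 77 CPM, 2.79-fold higher in XX (log2 fold change 1.48, SE 0.14, FDR 1.21e-12). At 24 h the XX values were 258, 329.5, 342 and 282 CPM and the XY values 102, 119, 115 and 94.1 CPM, 2.8-fold higher (log2 fold change 1.48, SE 0.13, FDR 7.85e-14). The size of the difference changed little between the times although both sexes stood higher after culture. At 72 h the XX libraries had 441, 347, 362 and 377 CPM, and the XY libraries had 112, 132, 147 and 181 CPM (log2 fold change 1.42, SE 0.13, FDR 6.5e-13). The groups of XX and XY libraries did not overlap at any of the 3 times.

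The dehydrogenase genes that make RA split between the sexes. *Aldh1a1* was higher in XY, with 361, 354, 388 and 394 CPM against 80.7, 90.1, 85.2 and 106 CPM in XX cells before culture (log2 fold change −2.04, SE 0.13, FDR 2.53e-19). At 24 h the XY libraries had 416, 361, 352 and 340.2 CPM and the XX libraries 176, 178, 205 and 139.5 CPM (log2 fold change −1.07, SE 0.12, FDR 7.49e-11), and the sexes stood closer together than before culture. At 72 h the ranges were 478 to 516 CPM in XY and 179 to 205 CPM in XX (log2 fold change −1.43, SE 0.12, FDR 1.63e-14).

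*Aldh1a2*, the main RA-forming gene of many embryonic tissues, was higher in XX by a smaller amount. Before culture XX cells had 124, 118, 62 and 102 CPM and XY cells 62.1, 72.3, 59.3 and 67 CPM (log2 fold change 0.66, SE 0.14, FDR 0.000218), and XX library F4, with the fewest total counts, lay inside the XY range. At 24 h the values were 134, 130.2, 129 and 139.5 CPM in XX and 83.8, 74.8, 98.3 and 92.5 CPM in XY (log2 fold change 0.61, SE 0.13, FDR 0.000202), with no overlap. At 72 h they were 93.9, 104, 97.1 and 109.5 CPM and 44.6, 47.2, 49.4 and 64.7 CPM (log2 fold change 0.98, SE 0.14, FDR 1.95e-07), and this was the widest separation of the 3 times. The calls before 72 h sat at the fold threshold: the one at 0 h was lost without XX library F2 (log2 fold change 0.56), and the one at 24 h without XX library F9, XY library M2 or XY library M3 (0.54 to 0.57). *Aldh1a3*, on few counts, had 8.12 to 19.2 CPM in XX and 2.28 to 7.18 CPM in XY cells at 0 h (log2 fold change 1.39, SE 0.35, FDR 0.00199). It had 5.26 to 9.65 and 3.48 to 11.4 CPM at 24 h, which did not pass (FDR 0.66), and 8.93 to 17 and 4.28 to 9.47 CPM at 72 h (log2 fold change 0.94, SE 0.34, FDR 0.0286). The call at 72 h was lost without XX library F7 or XY library M2, M4 or M6, at log2 fold changes of 0.74 to 0.97.

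*Stra6* and *Crabp2* were called higher in XX before culture, and later differed. *Stra6*, the retinol receptor gene, had 18.8, 7.95, 14.7 and 15.8 CPM in XX and 3.08, 4.55, 4.3 and 6.09 CPM in XY cells at 0 h (log2 fold change 1.64, SE 0.30, FDR 1.6e-05), with no overlap. It had log2 fold changes of 0.36 (SE 0.25, FDR 0.33) at 24 h and −0.28 (SE 0.24, FDR 0.409) at 72 h, neither of which passed. *Crabp2* had 19.2, 15.5, 10.1 and 15.1 CPM in XX and 5.64, 5.69, 9.08 and 10 CPM in XY cells at 0 h (log2 fold change 0.98, SE 0.30, FDR 0.0124). At 72 h it was the reverse, with 4.72, 8.64, 9.92 and 4.23 CPM in XX and 12.3, 17.4, 13 and 15.2 CPM in XY cells (log2 fold change −1.03, SE 0.30, FDR 0.00762). *Crabp2* is thus the gene of the 9 called in opposite directions at the first and the last time, and at 24 h its groups overlapped (log2 fold change −0.12, SE 0.30, FDR 0.817). The call at 0 h was lost without XX library F2 or XY library M2 (log2 fold changes 0.84 and 0.86).

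*Rarb* and *Crabp1* were not called between the sexes at any time. *Rarb* had 2, 7, 9 and 5 counts in XX and 6, 0, 3 and 9 counts in XY cells at 0 h, where the count of 0 in XY library M3 allows up to 3 counts or 1.70 CPM. It had 5, 28, 8 and 5 against 5, 5, 2 and 14 counts at 72 h. Its log2 fold changes were 0.37 (SE 0.65, FDR 0.741), 0.23 (SE 0.54, FDR 0.811) and 0.69 (SE 0.56, FDR 0.388) at 0, 24 and 72 h, and differences within these errors were not detectable at this depth. *Crabp1* had log2 fold changes of 0.07 (SE 0.49, FDR 0.935), 1.05 (SE 0.50, FDR 0.119) and −0.15 (SE 0.58, FDR 0.885), and its XX libraries at 72 h ranged from 0 to 30 counts.

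**Figure D2:**
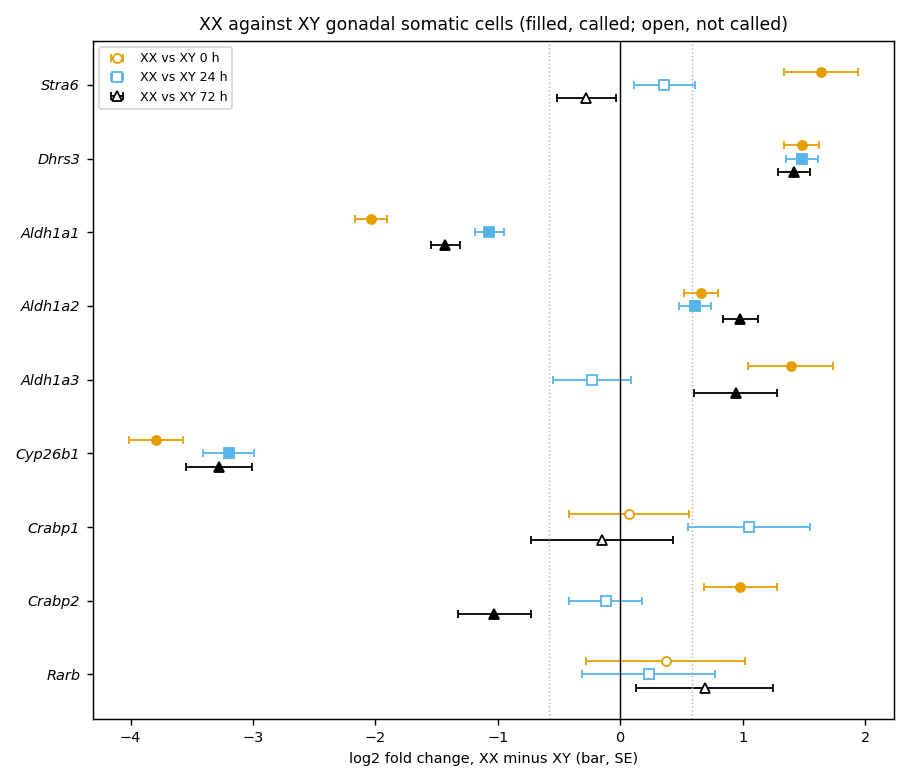
Log2 fold change of XX minus XY somatic cells for each gene at 0, 24 and 72 h, with bars of 1 SE; filled symbols were called, and dotted lines mark a 1.5-fold change. Cyp26b1 and Aldh1a1 lie to the left and Dhrs3 and Aldh1a2 to the right at all 3 times, while Crabp2 crosses from 0.98 to −1.03.

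Whether the difference between the sexes changed in culture was tested as an interaction. From 0 h to 24 h it changed for *Aldh1a1*, *Aldh1a3* and *Stra6*, 3 of 9 genes, against 6.2% of all genes. The XX minus XY log2 difference moved by 0.97 for *Aldh1a1* (FDR 7.53e-05), −1.62 for *Aldh1a3* (FDR 0.0258) and −1.29 for *Stra6* (FDR 0.0331). Leaving out each of the 16 libraries in turn kept the call of *Aldh1a1*. It ended that of *Aldh1a3* without XX F5 or XY M3 at 0 h or without XX F4 or XY M2 or M4 at 24 h (−1.52 to −1.40). It ended that of *Stra6* without XX F2 or F5 or XY M2, M3 or M5 at 0 h or without XX F4 or F6 or XY M3 or M4 at 24 h (−1.29 to −1.12). From 24 h to 72 h no gene of the 9 was called by edgeR, against 2.04% of all genes, and 3 had an unadjusted p below 0.05. DESeq2 and voom with treat called 0 of the 9, against 354 and 22 of all 15125 genes. For *Crabp2* the steps were −1.11 (SE 0.43, FDR 0.118) and −0.90 (SE 0.43, FDR 0.375), neither of which passed. For *Dhrs3* they were 0.00 (SE 0.20, FDR 0.996) and −0.07 (SE 0.18, FDR 0.951), and for *Cyp26b1* 0.60 (SE 0.33, FDR 0.35) and −0.08 (SE 0.35, FDR 0.967).

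The first 24 h of culture could be tested within 1 library set. In XY cells *Cyp26b1* fell by 0.61 on the log2 scale (SE 0.16, FDR 0.00391), from 109 ± 4.79 to 71.7 ± 2.21 CPM (mean ± SD, n = 4), and the groups did not overlap. It was the 1 gene of 9 called, against 14.4% of all genes, and it stood so near the fold threshold that leaving out XY library M6 at 0 h or M4 at 24 h ended the call (−0.57 and −0.58). With total counts in place of TMM scaling it was not called (−0.48), while *Dhrs3* (0.59) and *Stra6* (0.90) were, and without a filter on low counts, or with a filter of 1 CPM in 4 libraries, it was not called (−0.57). In XX cells *Cyp26b1* had −0.01 (SE 0.29, FDR 0.991). There *Aldh1a1* rose 1.92-fold (log2 fold change 0.94, SE 0.13, FDR 1.25e-07), from 90.5 ± 11 to 175 ± 26.9 CPM, and *Crabp2* fell from 15 ± 3.75 to 7.09 ± 1.93 CPM (log2 fold change −1.06, SE 0.29, FDR 0.00931). These were 2 of 9 genes, against 7.73% of all genes, and the *Crabp2* call was lost without XX library F2 at 0 h (−0.92). *Dhrs3* had 0.46 (SE 0.13, FDR 0.0103) in XX and 0.46 (SE 0.14, FDR 0.0127) in XY cells, below the fold threshold in both. *Stra6* had 0.77 (SE 0.30, FDR 0.0592) in XY cells and was called without XY library M6 at 0 h or M5 at 24 h (0.96 and 0.90), and *Aldh1a3* there had 0.73 (SE 0.35, FDR 0.132) and was called without XY library M3 at 24 h (1.02). In XX cells *Aldh1a3* had −0.89 (SE 0.32, FDR 0.0613) and was called without XX library F2 at 0 h or F5 at 24 h (−1.09 and −1.07). Erythroid markers summed to 14790 to 18680 CPM at 0 h and 2749 to 7946 CPM at 24 h in XY cells, and to 8701 to 15520 and 966 to 2217 CPM in XX cells. In XY cells 8 of 12 Sertoli markers were called lower (median log2 fold change −0.75, summed 2367 to 2687 CPM at 0 h and 1264 to 1900 CPM at 24 h). Higher were 4 of 10 interstitial progenitor and 1 of 9 mesonephros or duct markers, and lower 2 of 8 macrophage and 1 of 9 germ cell markers. Called in both directions were epithelial (4 of 9 higher, 1 lower), pre-granulosa (4 of 9 higher, 3 lower) and foetal Leydig markers (3 of 7 higher, 2 lower). The Leydig markers summed to 289 to 474 CPM at 0 h and 653.5 to 952 CPM at 24 h. In XX cells 4 of 9 germ cell, 3 of 9 epithelial, 2 of 12 Sertoli and 1 of 9 mesonephros or duct markers were higher. Lower there were 4 of 8 macrophage and 1 of 10 endothelial markers. Foetal Leydig markers (2 of 7 higher, 2 lower) and pre-granulosa markers (1 of 9 higher, 1 lower) were called in both directions. The part of these cell types in the values was not tested.

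With MEKi, XY somatic cells had less *Cyp26b1* and more *Stra6* and *Dhrs3* at both times, and more *Aldh1a2* and *Crabp2* at 72 h. At 24 h 3 of the 9 genes were called, 2 higher and 1 lower, against 3.27% of all genes. At 72 h 5 of 9 were called, 4 higher and 1 lower, against 6.47%. The median log2 fold change of MEKi minus DMSO over the 9 genes was 0.24 and 0.47, and over all genes −0.01 and 0. Endothelial markers fell with MEKi (10 of 10 called lower at 24 h and 8 of 10 at 72 h), as did 6 of 8 macrophage and 5 of 12 Sertoli markers at 72 h (2 of 12 Sertoli markers were called higher at 24 h and 1 at 72 h), when 3 of 7 foetal Leydig markers and 4 of 9 markers of coelomic or surface epithelium were called higher. The summed epithelial markers were at 855 to 955 CPM with MEKi and 641 to 723 CPM with DMSO at 72 h. At 24 h they were at 983 to 1125 CPM with MEKi and 776.5 to 887 CPM with DMSO. Called higher with MEKi at 24 h were 2 of 9 epithelial, 2 of 9 pre-granulosa and 4 of 9 germ cell markers. Lower at 24 h were 1 of 7 foetal Leydig and 1 of 8 macrophage markers. At 72 h interstitial progenitor markers had 1 of 10 higher and 1 lower, and 1 of 8 erythroid markers was lower. The part of these cell types in the values was not tested. Where the test was against a change of 1.5-fold rather than 0 (edgeR's glmTreat, or voom with treat), 0 of the 9 genes were called at 24 h and 1, *Cyp26b1*, at 72 h. Of all 15125 genes, glmTreat called 157 at 24 h and 132 at 72 h, and voom with treat 88 and 75. With total counts in place of TMM scaling, or with either other filter on low counts, *Cyp26b1* was the 1 gene called at 24 h.

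The *Cyp26b1* libraries at 24 h had 36.7, 43.2, 64 and 36.5 CPM with MEKi, all below the DMSO libraries at 69 to 74.3 CPM (log2 fold change −0.65, SE 0.17, FDR 0.0146). MEKi library M4 was the nearest to DMSO. The call was lost without any of the other 3 MEKi libraries, M1, M2 or M6 (−0.62 to −0.55). At 72 h the MEKi libraries had 14.2, 16.4, 11 and 10.2 CPM and the DMSO libraries 31.4 to 42.8 CPM, 2.82-fold lower with MEKi (log2 fold change −1.50, SE 0.21, FDR 1.09e-06), a call kept without each library in turn. The XX DMSO libraries had 2.61 to 5.64 CPM, so the inhibited XY cells lay between XX and XY DMSO cells without overlap on either side. The change against DMSO was larger at 72 h than at 24 h by 0.85 on the log2 scale in the direction of lower *Cyp26b1*, and this difference did not pass (log2 difference −0.85, SE 0.27, FDR 0.108).

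*Aldh1a2* rose with MEKi at 72 h. The MEKi libraries had 101, 105, 104 and 76.6 CPM and the DMSO libraries 44.6, 47.2, 49.4 and 64.7 CPM (log2 fold change 0.92, SE 0.14, FDR 7.93e-06), with no overlap, and XX DMSO cells had 93.9 to 109.5 CPM. At 24 h the values were 117, 91, 121 and 82.5 CPM with MEKi and 83.8, 74.8, 98.3 and 92.5 CPM with DMSO, which overlapped and did not pass (log2 fold change 0.24, SE 0.13, FDR 0.38). The difference between the 2 effects was 0.68 (SE 0.20, FDR 0.0632), and it was called in 4 of 16 fits with a library left out: without DMSO M3 or MEKi M4 at 24 h, or DMSO M6 or MEKi M5 at 72 h (0.75 to 0.80). *Aldh1a1* and *Aldh1a3* were not called with MEKi. *Aldh1a1* had −0.12 (SE 0.11, FDR 0.692) at 24 h and −0.05 (SE 0.11, FDR 0.804) at 72 h. *Aldh1a3* had −0.43 (SE 0.34, FDR 0.596) and 0.47 (SE 0.35, FDR 0.4).

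*Dhrs3* libraries at 72 h had 214, 225, 207 and 252 CPM with MEKi and 112, 132, 147 and 181 CPM with DMSO (log2 fold change 0.65, SE 0.13, FDR 0.0006). The MEKi libraries all lay above DMSO, and below the XX DMSO libraries at 347 to 441 CPM. At 24 h they had 178, 193, 111 and 174 CPM with MEKi and 94.1 to 119 CPM with DMSO (log2 fold change 0.59, SE 0.13, FDR 0.00313), and MEKi library M4 lay inside the DMSO range. Both calls were near the fold threshold: the one at 72 h was lost without DMSO library M2 (0.54), and the one at 24 h without DMSO M2 or M5 or MEKi M1, M2 or M6 (0.51 to 0.56).

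*Stra6* was highest of all 10 groups with MEKi at 72 h, at 29.4, 29, 34.2 and 34.5 CPM against 17, 22.9, 12.5 and 19 CPM with DMSO (log2 fold change 0.83, SE 0.22, FDR 0.00856), and the libraries did not overlap those of any other group. At 24 h it had 13.7, 16.6, 15.4 and 10.5 CPM with MEKi and 7.84, 8.95, 8.62 and 5.05 CPM with DMSO (log2 fold change 0.84, SE 0.25, FDR 0.0398), also without overlap, but the call was lost in 7 of 8 fits with a library left out, the fit without MEKi M6 being the exception (0.72 to 0.92 where it was lost, FDR 0.0514 to 0.12). *Crabp2* was at 20.9, 29, 31.4 and 18.3 CPM with MEKi and 12.3, 17.4, 13 and 15.2 CPM with DMSO at 72 h (log2 fold change 0.81, SE 0.26, FDR 0.0332). That call was lost without DMSO M2, M5 or M6 or MEKi M3 or M4 (0.67 to 0.84). At 24 h it had 0.89 (SE 0.28, FDR 0.0581), which passed with DESeq2 (FDR 0.0422) and without DMSO M5 or MEKi M2 or M4 (1.01 to 1.07). XX DMSO cells at 72 h had 11.5 to 16.5 CPM of *Stra6* and 4.23 to 9.92 CPM of *Crabp2*, below the MEKi libraries of the same time for both genes.

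*Rarb*, the receptor gene with the repeat shown above, had 0, 0, 2 and 3 counts with MEKi at 24 h and 6, 9, 16 and 8 counts with DMSO, and the 2 groups did not overlap in CPM. The difference did not pass (log2 fold change −2.12, SE 0.76, FDR 0.109). At 72 h it had 5, 11, 7 and 4 counts with MEKi and 5, 5, 2 and 14 with DMSO (log2 fold change −0.07, SE 0.60, FDR 0.954). A count of 0 in the 2 MEKi libraries at 24 h allows up to 3 counts, or 1.46 CPM in M1 and 1.98 CPM in M2. *Crabp1* had 0.48 (SE 0.54, FDR 0.745) at 24 h and −0.60 (SE 0.59, FDR 0.549) at 72 h. None of the 9 genes was called by edgeR for a difference between the MEKi effects at 72 h and 24 h, against 1.41% of all genes, and 3 had an unadjusted p below 0.05. DESeq2 called 1 (*Aldh1a2*), against 257 of all 13952 genes it tested. Voom with treat called 0, against 1 of all 15125 genes.

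**Figure D3:**
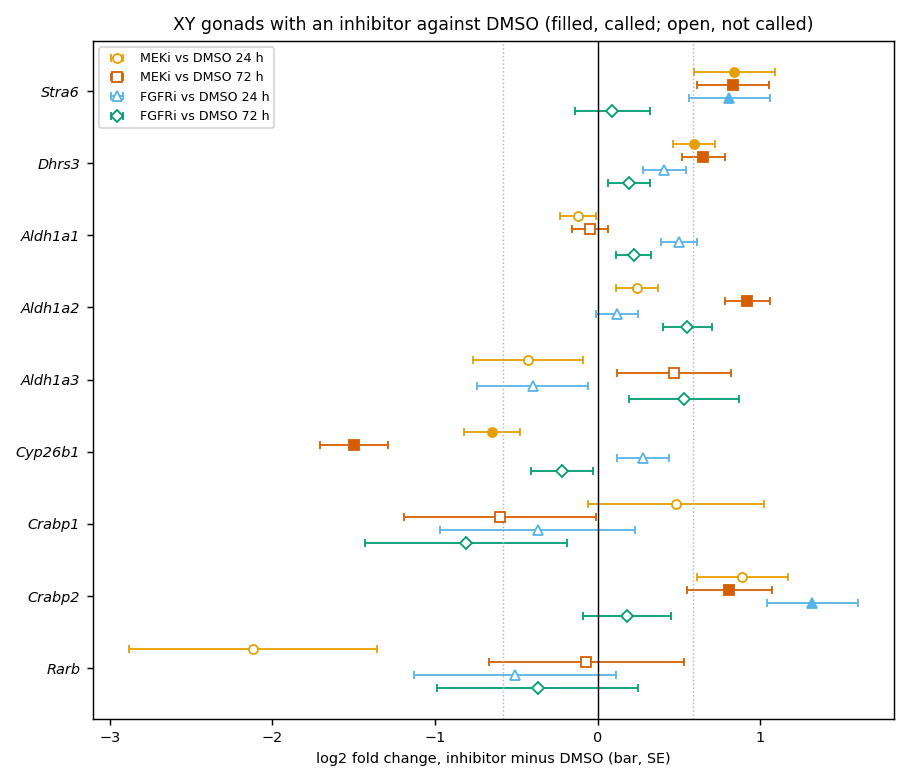
Log2 fold change of MEKi or FGFRi minus DMSO in XY somatic cells for each gene at 24 and 72 h, with bars of 1 SE; filled symbols were called, and dotted lines mark a 1.5-fold change. Cyp26b1 is lowest with MEKi at 72 h (−1.50), where Aldh1a2, Stra6, Crabp2 and Dhrs3 lie to the right, and no FGFRi value at 72 h was called.

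FGFRi gave no call among the 9 genes at 72 h by edgeR, against 1.8% of all genes. DESeq2 and voom with treat also called 0 of the 9, against 285 and 0 of all 15125 genes. In the edgeR test 1 gene of the 9 had an unadjusted p below 0.05. That gene was *Aldh1a2*, at 76, 72.9, 77 and 75.1 CPM with FGFRi and 44.6 to 64.7 CPM with DMSO. Its libraries did not overlap and its FDR was below 0.05, but the change was under 1.5-fold (log2 fold change 0.55, SE 0.15, FDR 0.0256). Without DMSO library M6 it was called (0.69). *Cyp26b1* libraries had 21.3, 38.5, 39 and 26 CPM with FGFRi, overlapping DMSO (log2 fold change −0.22, SE 0.19, FDR 0.673). *Stra6* had 0.09 (SE 0.23, FDR 0.918), *Dhrs3* 0.19 (SE 0.13, FDR 0.568) and *Crabp2* 0.18 (SE 0.27, FDR 0.845). *Aldh1a1* had 0.22 (SE 0.11, FDR 0.36), *Aldh1a3* 0.53 (SE 0.34, FDR 0.529), *Crabp1* −0.81 (SE 0.62, FDR 0.608) and *Rarb* −0.37 (SE 0.62, FDR 0.858). With FGFRi at 72 h 6 of 8 macrophage markers were called lower (summed 12.7 to 25.5 CPM, against 45.7 to 136 CPM with DMSO). Higher were 3 of 9 epithelial, 1 of 12 Sertoli and 1 of 7 foetal Leydig markers, and pre-granulosa markers had 1 of 9 higher and 1 lower. The part of these cell types in the values was not tested.

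At 24 h FGFRi and DMSO libraries came from different sets, so inhibitor and set cannot be told apart. There 2 of 9 genes were called, both higher, against 3.27% of all genes. *Crabp2* had 13.1, 23.2, 21 and 22.3 CPM with FGFRi and 9.98, 6.71, 5.75 and 10.5 CPM with DMSO (log2 fold change 1.32, SE 0.28, FDR 0.00147), without overlap. *Stra6* had 8.59, 14.3, 14.6 and 17 CPM with FGFRi (log2 fold change 0.81, SE 0.25, FDR 0.0468), and its call was lost in 7 of 8 fits with a library left out, the exception being FGFRi M1 (0.67 to 0.89). *Cyp26b1* had 117, 76.8, 77 and 76.5 CPM, with library M1 far above the other 3, and did not pass (log2 fold change 0.28, SE 0.16, FDR 0.392). *Aldh1a1* had an FDR of 0.00422 but under 1.5-fold (log2 fold change 0.50), and *Dhrs3* had 0.41 (SE 0.13, FDR 0.0582). Of the marker genes 3 of 12 Sertoli, 2 of 9 epithelial and 2 of 9 pre-granulosa markers were called higher with FGFRi at 24 h. Lower were 3 of 9 germ cell, 2 of 8 macrophage, 1 of 10 endothelial and 1 of 9 mesonephros or duct markers. Sertoli markers summed to 1807 to 2527 CPM with FGFRi and 1264 to 1900 CPM with DMSO, and the part of these cell types was not tested.

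MEKi and FGFRi could be compared directly at 72 h, within 1 set and at the same 500 nM. Of the 9 genes 2 were called, against 6.43% of all genes. *Cyp26b1* was 2.43-fold lower with MEKi than with FGFRi (log2 fold change −1.28, SE 0.21, FDR 2.14e-05), the libraries without overlap, and *Stra6* was higher (log2 fold change 0.75, SE 0.22, FDR 0.0187). The *Stra6* call was lost without FGFRi M2 or MEKi M4 or M5 (0.66 to 0.70). *Dhrs3* had an FDR of 0.0149 but below 1.5-fold (log2 fold change 0.46), while *Aldh1a2* (log2 fold change 0.37, SE 0.14, FDR 0.0819) and *Crabp2* (log2 fold change 0.63, SE 0.25, FDR 0.11) did not pass. Sertoli markers were lower with MEKi than with FGFRi (9 of 12 called lower and 0 higher, median log2 fold change −1.21). They summed to 856 to 1206 CPM with MEKi and 1618 to 2940 CPM with FGFRi. Also lower were 5 of 10 endothelial, 2 of 8 erythroid and 1 of 9 epithelial markers. Higher were 2 of 10 interstitial progenitor markers, and pre-granulosa markers had 2 of 9 higher and 1 lower. The part of these cell types in the values was not tested. The 2 inhibitors were compared with the same DMSO libraries, and their values against DMSO are not independent.

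**Figure D4:**
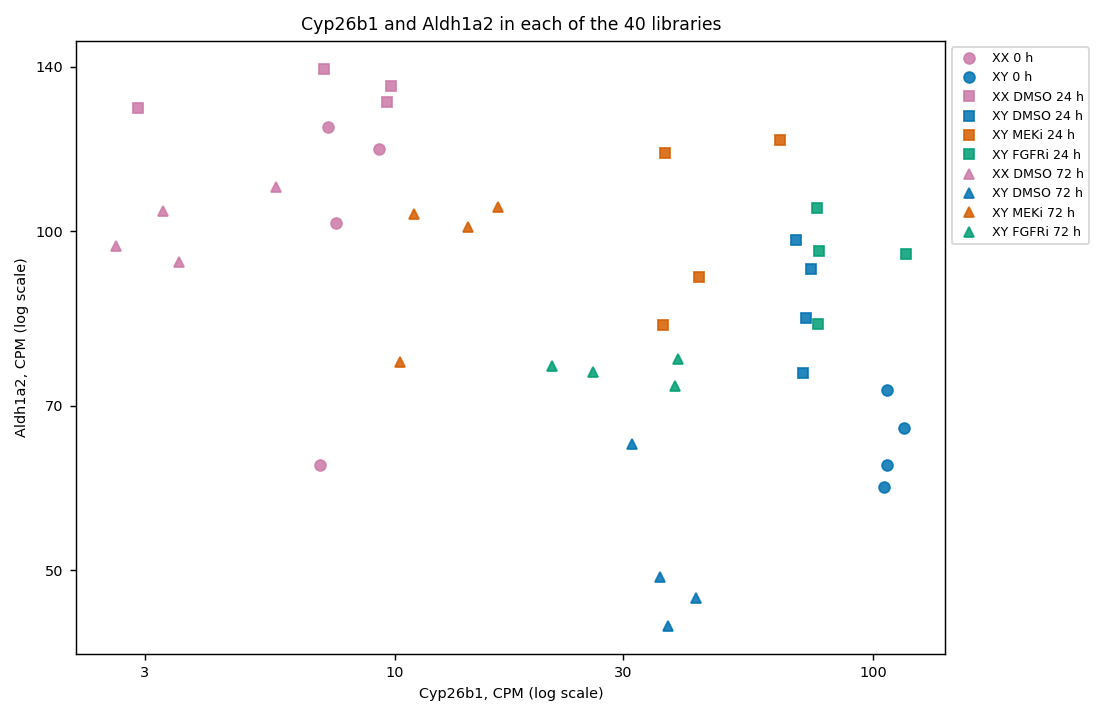
Cyp26b1 (x) and Aldh1a2 (y) in each of the 40 libraries, in CPM on log axes; colours as in the plot of levels, circles 0 h, squares 24 h, triangles 72 h. XX libraries lie at 93.9 CPM Aldh1a2 or more except library F4 at 0 h (61.98 CPM), XY DMSO libraries at 72 h at 44.7 to 64.7 CPM, and the 72 h MEKi libraries at 10.2 to 16.4 CPM Cyp26b1 and 76.6 to 105 CPM Aldh1a2.

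The order of the 10 groups differed between the genes. It runs across both library sets, and at a step between the sets the groups and the sets cannot be told apart. *Cyp26b1* ran from XY at 0 h (109 ± 4.79 CPM, mean ± SD, n = 4) through FGFRi and DMSO at 24 h, MEKi at 24 h, DMSO and FGFRi at 72 h and MEKi at 72 h to XX at 0, 24 and 72 h (3.77 ± 1.31 CPM). Neighbours overlapped at 5 of the 9 steps, and the 4 steps without overlap were from 24 h FGFRi to DMSO, from 24 h DMSO to MEKi, from 72 h FGFRi to MEKi and from 72 h MEKi to XX at 0 h. The first and the last of these lay between the sets, and the first did not pass when tested (log2 fold change 0.28, FDR 0.392). *Dhrs3* ran from XX at 72 h (382 ± 41.4 CPM) through XX at 24 h, MEKi at 72 h and XX at 0 h to the other XY groups, with XY at 0 h lowest (78.6 ± 6.36 CPM). *Aldh1a1* was at 274 CPM or more in every XY library and at 205 CPM or less in every XX library, with 72 h FGFRi highest (587 ± 134 CPM). *Aldh1a2* was highest in XX at 24 h (133 ± 4.9 CPM) and lowest in XY DMSO at 72 h (51.5 ± 9.03 CPM), and 2 of its 9 steps had no overlap, from XX at 24 h to MEKi at 24 h and from 72 h FGFRi to XY at 0 h. *Stra6* ran from 72 h MEKi to XY at 0 h (4.5 ± 1.24 CPM), and *Crabp2* from 72 h MEKi (24.9 ± 6.29 CPM) to XX at 72 h (6.88 ± 2.83 CPM), each with 1 step without overlap. *Aldh1a3* and *Crabp1* had overlap at each of the 9 steps. *Rarb* had overlap at 8 of them, and the lowest group, 24 h MEKi (0.513 ± 0.655 CPM), lay below 24 h FGFRi on 0 to 3 against 3 to 5 counts. A count of 0 in MEKi library M1 or M2 allows up to 1.46 or 1.98 CPM, and the lowest FGFRi library had 1.515 CPM. These 2 groups lay in different library sets and were not tested against each other.

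Other genes of the pathway were read from lists. No transcript of *Cyp26c1* was counted in any library, and *Cyp26a1* had at most 0.628 CPM, so neither passed the filter and *Cyp26b1* was the CYP26 gene measured in these cells. Of 11 genes for retinol uptake, binding and storage, 5 were tested. *Lrat*, which makes retinyl esters for storage, was higher with MEKi at 72 h (log2 fold change 1.01, SE 0.32, FDR 0.0299) and in XX at 72 h (log2 fold change 0.88, SE 0.32, FDR 0.0349). The first of these calls was lost without DMSO M2, M5 or M6 or MEKi M3 or M4 (0.87 to 1.06), and the second without XX F8 or F11 or XY M2, M5 or M6 (0.75 to 0.93).

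Of 19 retinol and retinal dehydrogenases and reductases, 8 were tested. At 72 h *Dhrs7* and *Adh1* were called with both inhibitors: *Adh1*, an alcohol dehydrogenase gene, was at 111 ± 17.2 CPM with MEKi, 112 ± 37.9 CPM with FGFRi and 54.7 ± 14.3 CPM with DMSO (log2 fold change 1.03, SE 0.20, FDR 0.000382 for MEKi and log2 fold change 1.05, SE 0.20, FDR 0.00154 for FGFRi). It was low in XX cells at 72 h (15.4 ± 7.48 CPM, log2 fold change −1.74, SE 0.25, FDR 8.94e-08 against XY). *Dhrs7* had 0.64 (SE 0.14, FDR 0.00172) with MEKi and 0.63 (SE 0.14, FDR 0.00747) with FGFRi, and was 3.03-fold higher in XX (log2 fold change 1.60, SE 0.14, FDR 6.45e-14). Its calls with the inhibitors were lost without DMSO M2 or MEKi M4 (0.58 and 0.47) and without DMSO M2 or FGFRi M5 (0.58 and 0.48). At 24 h with MEKi *Dhrs7* was higher (log2 fold change 0.72, SE 0.14, FDR 0.000501) and *Rdh10*, which makes retinal from retinol in the embryo, was lower (log2 fold change −0.89, SE 0.23, FDR 0.0139), a call lost without DMSO M4 or MEKi M1 or M2 (−0.83 to −0.67). At 72 h *Rdh10* had 0.15 (SE 0.22, FDR 0.713).

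Of 13 receptors, co-regulators and nuclear delivery genes 12 were tested. Of these 0 were called with either inhibitor at 24 h (3.27% of all genes with each) or with FGFRi at 72 h (1.8%). With MEKi at 72 h 1 was called, against 6.47% of all genes. It was the coactivator gene *Ncoa2* (log2 fold change −0.65, SE 0.15, FDR 0.00317), which lost its call without DMSO M2 (−0.56). *Fabp5*, a fatty acid binding protein gene, was lower in XX than in XY cells at 72 h (log2 fold change −1.35, SE 0.19, FDR 1.32e-07). Of 25 genes that respond to RA 18 were tested. With MEKi 3 were higher and 1 lower at 24 h, against 3.27% of all genes. At 72 h 1 was higher and 1 lower, against 6.47%. Between the sexes 6 were higher and 1 lower in XX at 0 h, 3 and 3 at 24 h, and 2 and 5 at 72 h. The shares of all genes called there were 17.3%, 19.6% and 20.3%. The median log2 fold change of the 18 genes was −0.04 and 0.06 with MEKi at 24 and 72 h. Among these, *Tgm2* was higher with MEKi at 72 h (log2 fold change 0.61, SE 0.10, FDR 8.71e-06), lost without DMSO M4 (0.55), and lower in XX than in XY at 72 h (log2 fold change −0.86, SE 0.10, FDR 4.11e-10). *Ccnd1*, a cyclin gene that also answers to MAPK signalling, was lower with MEKi at 72 h (log2 fold change −1.49, SE 0.27, FDR 0.000104) and FGFRi at 72 h (log2 fold change −1.45, SE 0.27, FDR 0.000786). With MEKi at 24 h it was also lower (log2 fold change −0.87, SE 0.25, FDR 0.0267), a call lost without DMSO M3 or MEKi M1, M2 or M6 (−0.89 to −0.41). *Meis2*, a homeobox gene, was lower in XX at 72 h (log2 fold change −0.81, SE 0.13, FDR 2.13e-06).

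*Stra8*, the germ cell gene known for its answer to RA, was also counted in these GFP-negative cells. It had 23 to 31 counts per library in XY and 0 or 1 in XX cells at 0 h, 14 to 53 counts in XX and 0 to 7 in XY DMSO cells at 24 h, and 30 to 92 counts with MEKi at 24 h. It was higher with MEKi at 24 h (log2 fold change 4.79, SE 0.50, FDR 1.17e-09), and at 72 h it was not called (log2 fold change −0.04, SE 0.61, FDR 0.975). It was lower in XX than XY at 0 h (log2 fold change −5.01, SE 0.71, FDR 9.67e-08) and higher at 24 h (log2 fold change 3.58, SE 0.52, FDR 1.68e-07). With FGFRi at 24 h, where inhibitor and set cannot be told apart, it had 14 to 16 counts (log2 fold change 2.91, SE 0.57, FDR 0.000591). Germ cell markers summed to 78.2 to 118 CPM in XX and 198 to 325 CPM in XY cells at 0 h, to 123 to 264 and 134 to 214 CPM at 24 h, and to 289 to 542 CPM with MEKi and 30.4 to 81.6 CPM with FGFRi at 24 h. With MEKi at 24 h 4 of the 9 germ cell markers were called higher, and the part of germ cells in the *Stra8* values was not tested.

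Among 14423 other genes with a mean of at least 5 CPM in some group, the pattern over the 10 group means of log2 CPM most like that of *Cyp26b1* was that of *Col9a3* (Pearson r = 0.976), a collagen gene, which ran from 9.61 CPM in XX at 24 h to 404 CPM in XY at 0 h. *Aldh1a1* was most like *Lmo4* (0.987), *Plod2* (0.984) and *Cobll1* (0.982), and *Dhrs3* most like *Pcyox1* (0.976), *Pfkm* (0.968) and *Ube2j1* (0.967). For *Aldh1a2* the closest were *Natd1* (0.929), *Myh8* (0.928) and *Maea* (0.928), for *Stra6* *Arsa* (0.948), *Tmem237* (0.947) and *Mien1* (0.942), and for *Crabp2* *Zfp607b* (0.899), *Angpt4* (0.891) and *Aprt* (0.880). The other 2 for *Cyp26b1* were *Pik3c2b* (0.972) and *BC006965* (0.967). For *Aldh1a3* they were *Bbs2* (0.915), *Cfap36* (0.909) and *Sytl1* (0.908), for *Rarb* *Tmem158* (0.970), *St7l* (0.950) and *Prag1* (0.919), and for *Crabp1* *Usp10* (0.955) and *Prmt3* (0.951). These likenesses describe 10 group means that share their libraries.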

How the data were processed

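GFP-negative somatic cells of pooled mouse gonads were sorted and profiled by 3′ RNA-seq with molecular tags (UMIs), 40 libraries in 10 groups of 4. The deposited values are raw UMI counts per gene, which the authors made with scPipe and Rsubread against GRCm39 with GENCODE exons, using strand, collapsing UMIs and adding 2 lanes; versions are not given in the sources used here, and the methods describe the germ cell libraries, taken to hold here. The submitters' processing notes also name edgeR and limma. The 2 GEO samples are pools of 20 libraries each, so each library took its group from its name in the pool's description or, for 1 library (MEKi at 24 h, M2), from its name in the count table and barcode list, since the description lists 19 of that pool. Calls that changed without that library are given so.

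From the counts, genes were filtered with filterByExpr, which left 15125 of 42422, scaled by TMM, and tested in edgeR 4.0.16 (R 4.3.3) with the quasi-likelihood test in 1 model of 10 group means over all libraries, with Benjamini-Hochberg adjustment over all genes tested. A call needed FDR below 0.05 and at least a 1.5-fold change. Positions came from GENCODE M39, which matched 40391 identifiers. No 2 libraries of a group agreed within sampling noise (chi-square per degree of freedom 1.92 to 7.69 over 60 pairs). The fit was tested on simulated data.

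Alternatives were other scalings and filters, DESeq2 1.42.0, glmTreat, voom with quality weights and treat (limma 3.58.1, the authors' test), fewer libraries in the fit, a replicate block and each library left out. Counting error depends on total counts of 1380707 to 4836550 per library (median 2248854), and limits for a count of 0 cover counting error only. Other pathway genes were named where called between XX and XY at 72 h, with MEKi at either time or with FGFRi at 72 h, at most the 4 per list with the highest mean level, with *Stra8*, *Cyp26a1*, *Cyp26c1* and *Rdh10* always, and for each of the 9 genes up to 3 genes of the most similar pattern. Some genes that these rules name are not reported here. The genes and lists were chosen with earlier results of these data known. No change of a single group from 24 h to 72 h was tested, because library set and time cannot be told apart. The changes of the MEKi effect and of the XX-XY difference from 24 h to 72 h were tested. These take a shift between the sets to be the same on the log2 scale in both groups compared, so that it cancels.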

Additional observations from a re-analysis of the deposited data

Results flagged for a closer look

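Single libraries far from the other 3 of their group were found in 5 of 90 groups of values, where chance gives about 1 in 20. *Cyp26b1* was at 116.1 CPM in XY library M6 at 0 h, with the others at 105.7 to 107.2 CPM, and at 117.2 CPM in FGFRi library M1 at 24 h, with the others at 76.48 to 77.0 CPM. *Aldh1a1* was at 555.1 CPM in MEKi library M4 at 72 h, with the others at 455.5 to 465.5 CPM. *Aldh1a2* was at 76.57 CPM in MEKi library M5 at 72 h, below the others at 101.0 to 105.1 CPM. *Rarb* was at 4.204 CPM in MEKi library M3 at 72 h, on 11 counts, with the others at 2.157 to 2.37 CPM.

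The XX minus XY difference changed between 0 h and 24 h of culture for 3 genes, tested as an interaction over all genes with edgeR. On the log2 scale it moved by 0.97 for *Aldh1a1*, by −1.62 for *Aldh1a3* and by −1.29 for *Stra6*. The call of *Aldh1a3* was lost in 5 and that of *Stra6* in 9 of 16 fits with a library left out. With glmTreat or voom with treat 0 of the 9 were called, against 259 and 119 of all 15125 genes.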

How the results depend on the processing

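No called value changed direction under any alternative run. The counts of the 9 genes called changed by more than 1.5 times, or between 0 and 1, as follows. With glmTreat they were 0 with MEKi or FGFRi for 24 h, and 0 in XY 24 h against 0 h and the change of the XX-XY difference from 0 h to 24 h, and 1 for MEKi at 72 h, MEKi against FGFRi and XX 24 h against 0 h. With voom and treat they were 3 for XX against XY at 0 h, 1 for MEKi at 72 h, and 0 with either inhibitor at 24 h, MEKi against FGFRi, both 24 h against 0 h comparisons and that change of the XX-XY difference. These tests are against 1.5-fold by construction. With total counts unscaled, without a filter, or with a filter of 1 CPM in 4 libraries, MEKi at 24 h and FGFRi at 24 h each gave 1. FGFRi at 24 h also gave 1 with the time points or groups compared alone. XY 24 h against 0 h gave 2 with total counts, with the time points compared and with the groups compared, and 0 with the 1 CPM filter; with total counts the 2 were *Dhrs3* (0.59) and *Stra6* (0.90), and *Cyp26b1* was lost (−0.48). The MEKi effect at 72 h minus 24 h gave 1 without a filter, with DESeq2 and with the time points compared. Smaller changes were, for XX against XY, 5 of 7 at 0 h with glmTreat, 3 of 4 at 24 h with glmTreat, voom with treat or total counts, 5 at 24 h with the time points compared, and 4 of 6 at 72 h with glmTreat or voom with treat. MEKi at 24 h gave 4 with DESeq2 and 2 with the time points compared, the groups compared or the replicate block, and the change of the XX-XY difference from 0 h to 24 h gave 2 without a filter and with the time points or groups compared. The cause was not tested.

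With each library left out, the counts were 5 to 7, 3 to 4 and 5 to 6 for XX against XY at 0, 24 and 72 h, 0 to 3 and 3 to 5 with MEKi (24 and 72 h), 1 to 2 and 0 to 1 for FGFRi, 1 to 2 for MEKi against FGFRi, 0 to 2 for XY and 2 to 3 for XX 24 h against 0 h, 0 to 1 for the MEKi effect at 72 h minus 24 h, and 1 to 3 and 0 to 0 for the XX-XY difference.

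Replicate labels did not pair the libraries: correlations of same-labelled deviations were −0.156 to 0.116, and in no comparison did every library correlate best with its own label. With the replicate block, XY 24 h against 0 h gave 2 and the change of the XX-XY difference from 0 h to 24 h gave 1. XX and XY libraries share no label, so no block could be fitted there.

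Over all genes tested, glmTreat called 1388, 1582 and 1490 genes between the sexes at 0, 24 and 72 h, 157 and 132 with MEKi at 24 and 72 h, 27 and 5 with FGFRi, 208 for MEKi against FGFRi, 688 and 356 for XY and XX 24 h against 0 h, 8 for the MEKi effect at 72 h minus 24 h, and 259 and 55 for the XX-XY differences. In the same order voom with treat called 936, 1156, 1087, 88, 75, 16, 0, 90, 421, 214, 1, 119 and 22 genes. The edgeR test called 2622, 2961, 3067, 495, 979, 495, 273, 972, 2178, 1169, 213, 938 and 309. Without a filter 350 genes were called for the MEKi effect at 72 h minus 24 h. Depth limits *Rarb* and *Crabp1* most, at 0 to 28 and 0 to 57 counts per library.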
